A study of Mus musculus with 24 samples.

Results

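The genes described here are 10 members of the Bcl2 family, which decides between survival and death at the mitochondrion: Bcl2, Bcl2l1, Mcl1, Bax, Bak1, Bid, Bcl2l11, Bbc3, Pmaip1 and Bmf. They were taken as the non-control probes whose gene name in the scanner files is a member or an older name of it, and 12 probes on the array met this rule, 2 each for Bcl2l1 and Mcl1 and 1 for each of the others. They stand among 29521 features tested. Spleen RNA was measured on 24 one-colour Agilent arrays in BALB.K and B10.BR mice. Spleens were taken 24 hours after total body irradiation from an X-ray irradiator, at 300, 400 or 800 cGy for BALB.K and 300, 500 or 900 cGy for B10.BR, and from unirradiated animals (0 cGy) of both strains. There were 3 arrays per group in 8 groups, and RNA from 3 mice was pooled on every array, so that p-values measure the spread between pools. The labels give no other genotype or agent, and the sources used here state neither the age nor the sex of the mice.

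Bcl2 family proteins act on the outer membrane of the mitochondrion. Bax and Bak1 are the effectors that form the pore through which cytochrome c leaves, and this release starts the apoptosome and the caspases. Bcl2, Bcl2l1 (Bcl-xL) and Mcl1 are the survival members, which hold the effectors and their activators. The BH3-only members relay damage or loss of growth signals: Bid and Bcl2l11 (Bim) bind effectors and survival proteins, Bbc3 (Puma) and Pmaip1 (Noxa) are induced by p53, and Bmf responds to loss of attachment or of survival signals. Lymphocytes of the spleen are among the most radiation-sensitive cells of the body, and in them the response to radiation runs largely through p53 and these proteins. In a whole organ, fewer cells of a type and less RNA per cell cannot be told apart.

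The probes are 60 bases long, and the 3 printed here are shown because they read coding sequence of members whose change differed between the strains: the survival genes Bcl2 and Bcl2l1 (its dimmer probe) and the BH3-only gene Bcl2l11. All 3 are read from the scanner files, 5′ to 3′, on mm9. The Bcl2 probe (A_51_P380013, listed for the transcript NM_177410) lies at chr1:108608970-108609029 on the minus strand and reads into the region that codes for BH1, a part of the groove that holds BH3 motifs. The second Bcl2l1 probe (A_52_P510877, NM_009743) lies at chr2:152655185-152655244 on the minus strand. The Bcl2l11 probe (A_51_P484880, NM_207680) reads the region that codes for its BH3 motif, and its ends lie at chr2:127972893-127983988 on the plus strand, a span of 11096 bases, so that it crosses from one exon to another. No letters are capitalised in these probes.
Bcl2: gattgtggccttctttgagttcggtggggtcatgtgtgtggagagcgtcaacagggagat
Bcl2l1: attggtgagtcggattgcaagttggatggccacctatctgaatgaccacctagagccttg
Bcl2l11: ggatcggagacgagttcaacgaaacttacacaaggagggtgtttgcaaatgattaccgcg

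The p53 half-site, the motif that p53 binds in pairs, was searched in the RefSeq promoter windows of GRCm38.p6, which run from 250 bases before to 50 after a transcript start. The half-site reads the same on both strands, so that 1 search covers both. Of 32851 promoters, 8.36% held a perfect half-site and 0.0731% a pair with up to 13 bases between. Among the members 9 of 10 had a window, 16 windows in all, and Pmaip1, which had none, was not searched. A half-site was found in 1 window of Bax and 1 of 3 windows of Bmf, and a pair in none. The matches are printed because these are the only half-sites among the members' windows, in 1 gene that rose and 1 that did not pass the test at any dose. The capitals mark the half-site. In Bax it covers bases -201 to -192 from the start, within chr7:45467070-45467119 on the minus strand, and in Bmf bases -213 to -204, within chr2:118544771-118544820 on the minus strand. A match is a description of these letters and not a binding site.
Bax: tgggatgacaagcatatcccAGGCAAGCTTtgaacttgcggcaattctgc
Bmf: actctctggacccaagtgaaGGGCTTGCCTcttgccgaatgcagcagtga

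Levels are log2 intensities minus the array's 75th percentile, so that 0 is the 75th percentile of that array, and they are compared for 1 probe between arrays only. Changes are log2 differences ± the standard error of the limma fit over all 24 arrays, 3 arrays against 3. The words rose and fell are used where the Benjamini-Hochberg adjusted p over all 29521 features was under 0.05. All 12 probes were well above background on all 24 arrays and passed the filter, and none had a saturated spot. The share of the 55681 probes well above background ran from 66.9% to 76.9% per array, and the scaling percentile lay between 830.3 and 1235 intensity units. Cdkn1a, a direct p53 target that stops the cell cycle, rose by 3.82 to 5.35 in the 6 comparisons with 0 cGy. The arrays lay on 3 slides. In BALB.K the 0 cGy arrays lay on the second slide and all 400 and 800 cGy arrays on the third, and in B10.BR the 0 cGy arrays lay on the first and all 900 cGy arrays on the second, so that within these 3 comparisons slide and dose cannot be told apart. All B10.BR arrays at 0 and 300 cGy shared the first slide. Y-linked signal was present on 1 of 3 arrays at 0, 300 and 400 cGy in BALB.K, on 3 of 3 at 800 cGy and on all B10.BR arrays. It thus went in part with dose at 800 against 0 or 400 cGy in BALB.K, and in part with strain at 0 cGy. The strain difference at the highest doses holds the same 800 cGy arrays.

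After irradiation the death genes Bax, Bbc3 and Pmaip1 rose at every dose in both strains, and Bid fell at all doses but 300 cGy in BALB.K. Among the survival genes, Bcl2l1 fell at all 3 doses in BALB.K and, by its brighter probe alone, by less at 300 and 900 cGy in B10.BR. Mcl1 fell in B10.BR at every dose by its brighter probe, and by its second probe at 900 cGy alone, and passed at no dose in BALB.K. Bcl2 rose in BALB.K at 300 and 400 cGy and fell in B10.BR at 500 and 900 cGy. Bak1 and Bmf passed the test at no dose. In BALB.K, 4 members rose and 2 fell at 300 cGy, where 20.8% of all features rose and 25.9% fell. At 400 cGy 4 rose and 2 fell (25.5% and 25.9% of all features), and at 800 cGy 3 rose and 2 fell (29.2% and 29.1%). In B10.BR, 4 rose and 3 fell at 300 cGy (18.8% and 22.8% of all features), 4 rose and 3 fell at 500 cGy (22.1% and 26.6%), and 3 rose and 4 fell at 900 cGy (25.8% and 28.4%). With 10 members these counts are not far from the background, so that the counts alone set the family apart from nothing. The median change of the 10 members lay between -0.13 and 0.07, beside -0.12 to 0.08 over all features.

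**Figure D1:**
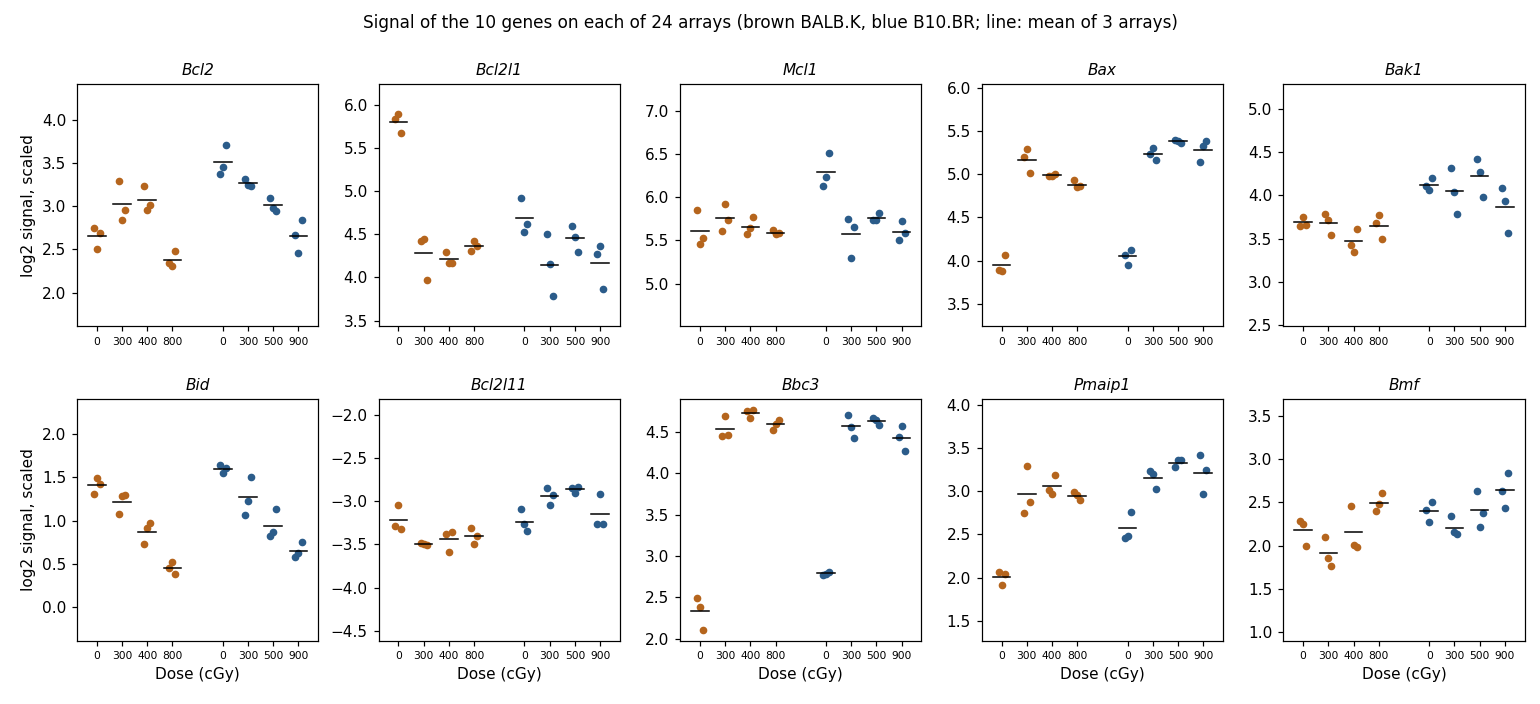
Scaled log2 signal (y axis) of the 10 genes on each array by dose in cGy (x axis), with BALB.K in brown, B10.BR in blue and a line for the mean of 3 arrays; the y axes have their own ranges and are not to be compared between genes. Every irradiated array of Bax, Bbc3 and Pmaip1 lies above every unirradiated array of its strain, and Bid reads lower at each higher dose.

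Bcl2l1 encodes Bcl-xL, the survival protein on which maturing red cells depend. In BALB.K its brighter probe read 5.84, 5.89 and 5.67 at 0 cGy. It read 4.42, 4.45 and 3.97 at 300 cGy, 4.30, 4.17 and 4.17 at 400 cGy, and 4.31, 4.42 and 4.36 at 800 cGy. All 9 irradiated arrays lay below all 3 unirradiated ones, and the irradiated doses read much alike. The changes were -1.52 ± 0.17 at 300 cGy, -1.59 ± 0.17 at 400 cGy and -1.44 ± 0.17 at 800 cGy, a fall of 2.87-fold, 3.00-fold and 2.71-fold (limma adjusted p = 6.61e-07, 2.83e-07 and 6.34e-07). In B10.BR the probe started lower, at 4.92, 4.53 and 4.62, and read 4.50, 4.16 and 3.78 at 300 cGy. It read 4.60, 4.47 and 4.29 at 500 cGy and 4.27, 4.37 and 3.87 at 900 cGy. These groups lie close together, and only the 500 cGy arrays overlap those at 0 cGy. Bcl2l1 fell by 0.54 ± 0.17 at 300 cGy and by 0.52 ± 0.17 at 900 cGy (limma adjusted p = 0.0142 and 0.0139), and the change of -0.23 ± 0.17 at 500 cGy did not pass (limma adjusted p = 0.276). The B10.BR calls did not hold without replicate 1 at 0 cGy (-0.43 at 300 and -0.41 at 900 cGy), without replicate 3 at 300 cGy (-0.36), or without replicate 3 at 900 cGy (-0.37), and at 900 cGy also not with the slide as a block (-0.28). With the mean of the gene's probes neither passed (-0.25 at 300 and -0.29 at 900 cGy, limma adjusted p = 0.331 and 0.216). The call at 300 cGy also did not hold with only the arrays compared in the fit (limma adjusted p = 0.0908), and neither call held with spike-in scaling.

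The second Bcl2l1 probe, printed above, is far dimmer, at -2.20 ± 0.15 (SD, n = 3) in unirradiated BALB.K. It fell there by 1.61 ± 0.31 at 300 cGy, by 1.48 ± 0.31 at 400 cGy and by 0.75 ± 0.31 at 800 cGy (limma adjusted p = 0.000325, 0.000566 and 0.0458). In B10.BR it moved by 0.05 ± 0.31, 0.15 ± 0.31 and -0.05 ± 0.31 at 300, 500 and 900 cGy and passed at none of them. Both probes thus fell in BALB.K, and in B10.BR the fall passed with the brighter probe alone.

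**Figure D2:**
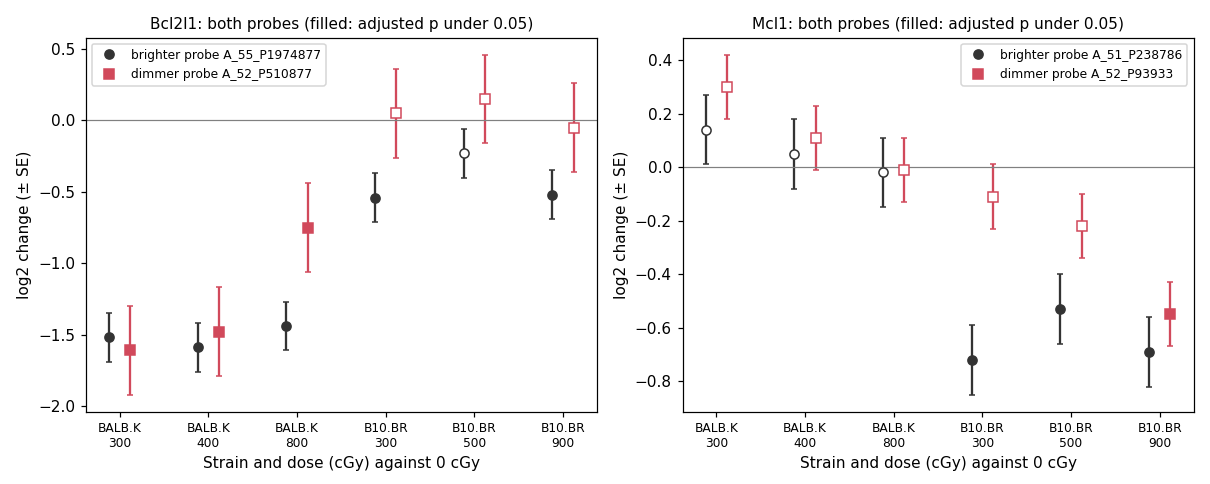
log2 change against 0 cGy (y axis, ± SE, 3 arrays against 3) of the brighter and the dimmer probe of Bcl2l1 and of Mcl1 in the 6 comparisons (x axis, strain and dose in cGy); filled symbols passed an adjusted p of 0.05. Both Bcl2l1 probes are below 0 in BALB.K, and both Mcl1 probes fell together only at 900 cGy in B10.BR.

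Bcl2, the founding survival gene and a mainstay of resting lymphocytes, rose in BALB.K at the lower doses and fell in B10.BR at the higher ones. In BALB.K it read 2.75, 2.51 and 2.69 at 0 cGy, 3.29, 2.84 and 2.96 at 300 cGy, and 3.23, 2.96 and 3.01 at 400 cGy. At 800 cGy it read 2.34, 2.31 and 2.48, below every other array of the strain. Bcl2 rose by 0.38 ± 0.12 at 300 cGy and by 0.42 ± 0.12 at 400 cGy (limma adjusted p = 0.0168 and 0.00847), and the change of -0.27 ± 0.12 at 800 cGy did not pass (limma adjusted p = 0.0663). In B10.BR the gene started higher, at 3.37, 3.45 and 3.71, and each higher dose read lower: 3.32, 3.25 and 3.24 at 300 cGy, 3.10, 2.98 and 2.95 at 500 cGy, and 2.67, 2.46 and 2.84 at 900 cGy. None of these groups overlapped the unirradiated arrays. The change was -0.24 ± 0.12 at 300 cGy (limma adjusted p = 0.128), and Bcl2 fell by 0.51 ± 0.12 at 500 cGy and by 0.86 ± 0.12 at 900 cGy (limma adjusted p = 0.0021 and 8.58e-06). The rise in BALB.K at 300 cGy did not hold without replicate 2 at 0 cGy (0.31) or replicate 1 at 300 cGy (0.25), and that at 400 cGy not without replicate 1 at 400 cGy (0.34, limma adjusted p = 0.0505). The rise at 300 cGy also did not pass with only the arrays compared in the fit, with spike-in scaling, with the exocrine covariate or without the arrays with Y-linked signal (0.30 to 0.38, limma adjusted p = 0.0516 to 0.234), and that at 400 cGy not with spike-in scaling (0.51, limma adjusted p = 0.054).

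Mcl1 is a short-lived survival protein that most blood cells need. Its brighter probe stayed between 5.46 and 5.92 on all 12 BALB.K arrays, and the groups overlapped. The changes there were 0.14 ± 0.13, 0.05 ± 0.13 and -0.02 ± 0.13 at 300, 400 and 800 cGy, with 95% intervals of -0.13 to 0.41, -0.22 to 0.32 and -0.29 to 0.25. In B10.BR it read 6.13, 6.23 and 6.51 at 0 cGy, 5.75, 5.30 and 5.66 at 300 cGy, 5.74, 5.73 and 5.82 at 500 cGy, and 5.50, 5.72 and 5.58 at 900 cGy. All 9 irradiated arrays lay below the 3 unirradiated ones. Mcl1 fell by 0.72 ± 0.13, 0.53 ± 0.13 and 0.69 ± 0.13 (limma adjusted p = 0.00016, 0.00203 and 0.000137). The second Mcl1 probe, A_52_P93933, did not follow at the lower doses: its B10.BR changes were -0.11 ± 0.12, -0.22 ± 0.12 and -0.55 ± 0.12, and only the last passed (limma adjusted p = 0.00104). In BALB.K that probe moved by 0.30 ± 0.12, 0.11 ± 0.12 and -0.01 ± 0.12 and passed at no dose.

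Bax, the effector that moves from the cytosol to the mitochondrion and a direct p53 target, rose at every dose in both strains. In BALB.K it read 3.89, 3.88 and 4.06 at 0 cGy, 5.2, 5.29 and 5.01 at 300 cGy, 4.98, 4.98 and 5 at 400 cGy, and 4.93, 4.85 and 4.86 at 800 cGy. In B10.BR it read 4.07, 3.95 and 4.12 at 0 cGy, 5.24, 5.30 and 5.17 at 300 cGy, 5.40, 5.38 and 5.36 at 500 cGy, and 5.14, 5.33 and 5.39 at 900 cGy. The irradiated arrays of a strain all lay well above its unirradiated ones. Bax rose by 1.22, 1.04 and 0.94 in BALB.K and by 1.19, 1.33 and 1.24 in B10.BR, each ± 0.084, which is 1.91-fold to 2.52-fold (largest limma adjusted p = 1.94e-08). The arrays of the 2 strains overlapped at 300 cGy, and above it those of B10.BR read higher than those of BALB.K, at doses that differ. Bak1, the effector that sits in the membrane from the start, gave 95% intervals that held 0 at every dose, with changes of -0.26 to 0.10. Its arrays ran from 3.35 to 3.79 in BALB.K and from 3.57 to 4.42 in B10.BR, and in 5 of the 6 comparisons the groups overlapped.

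Bbc3, the BH3-only gene that p53 needs to kill lymphocytes, had the largest rise of the family. In BALB.K it read 2.49, 2.38 and 2.11 at 0 cGy, 4.45, 4.69 and 4.47 at 300 cGy, 4.75, 4.67 and 4.77 at 400 cGy, and 4.53, 4.60 and 4.65 at 800 cGy. In B10.BR it read 2.77, 2.78 and 2.81 at 0 cGy, 4.71, 4.56 and 4.43 at 300 cGy, 4.67, 4.65 and 4.59 at 500 cGy, and 4.44, 4.57 and 4.27 at 900 cGy. The irradiated arrays of both strains overlapped, from starts that differed. Bbc3 rose by 2.21, 2.40 and 2.27 in BALB.K and by 1.78, 1.85 and 1.64 in B10.BR, each ± 0.10, which is 3.11-fold to 5.29-fold (largest limma adjusted p = 3.28e-10).

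Pmaip1, which frees cells for death by binding Mcl1, rose less. In BALB.K it read 2.06, 1.92 and 2.04 at 0 cGy, 2.75, 3.29 and 2.88 at 300 cGy, 3.02, 2.97 and 3.19 at 400 cGy, and 2.99, 2.96 and 2.90 at 800 cGy. In B10.BR it read 2.46, 2.48 and 2.76 at 0 cGy, 3.23, 3.20 and 3.03 at 300 cGy, 3.28, 3.36 and 3.36 at 500 cGy, and 3.42, 2.97 and 3.25 at 900 cGy. Irradiated and unirradiated arrays of a strain did not overlap. The rises were 0.96, 1.06 and 0.94 in BALB.K and 0.59, 0.77 and 0.65 in B10.BR, each ± 0.13, which is 1.5-fold to 2.08-fold (largest limma adjusted p = 0.0012). The 18 rises of Bax, Bbc3 and Pmaip1 stayed under an adjusted p of 0.05 in each of the 20 or 21 alternative settings run for them.

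Bid, which caspase-8 cuts to carry the death receptor signal to the mitochondrion, read lower at each higher dose in both strains. In BALB.K it read 1.31, 1.49 and 1.42 at 0 cGy, 1.08, 1.28 and 1.30 at 300 cGy, 0.73, 0.91 and 0.97 at 400 cGy, and 0.45, 0.52 and 0.38 at 800 cGy, with no overlap between any of these groups. In B10.BR it read 1.64, 1.55 and 1.61 at 0 cGy, 1.06, 1.23 and 1.5 at 300 cGy, 0.82, 0.87 and 1.14 at 500 cGy, and 0.58, 0.63 and 0.75 at 900 cGy, where the 300 and 500 cGy arrays overlapped. The BALB.K changes were -0.18 ± 0.11, -0.53 ± 0.11 and -0.96 ± 0.11, and the last 2 passed (limma adjusted p = 0.181, 0.000462 and 4.88e-07). The B10.BR changes were -0.34 ± 0.11, -0.66 ± 0.11 and -0.95 ± 0.11, and all passed (limma adjusted p = 0.0196, 5.77e-05 and 5.9e-07). At 300 cGy the B10.BR call did not hold without replicate 1 or 3 at 0 cGy (-0.32 and -0.33) or without replicate 1 or 2 at 300 cGy (-0.23 and -0.32). With the arrays scaled on spike-in probes no Bid change passed (0.00 to -0.58, limma adjusted p = 0.0635 to 0.995).

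Bid moved with the lymphocyte markers. All 12 B cell markers and 11 of 12 T cell markers fell at the highest dose of each strain, with a median change of -2.81 and -1.78 in BALB.K and of -2.73 and -2.27 in B10.BR. The summed B cell signal in BALB.K was 0.139% to 0.151% of all signal at 0 cGy and 0.0231% to 0.0250% at 800 cGy. In B10.BR it was 0.165% to 0.174% without irradiation and 0.0307% to 0.0340% after 900 cGy. All of these markers were above background on all arrays. Over the 12 arrays of a strain, which share dose groups, Bid correlated with the mean of the B cell markers at r = 0.96 in BALB.K and 0.97 in B10.BR. The value was 0.97 and 0.95 with the T cell markers, and 0.99 and 0.58 with the NK cell markers. Bid also went with the erythroid (0.74 and 0.87) and proliferation markers (0.74 and 0.91). It ran against the macrophage (-0.87 and -0.9), stromal (-0.76 and -0.91) and plasma cell markers (-0.71 and -0.82). The part of these cells in the fall of Bid was not tested.

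Bcl2l1 and the erythroid markers moved together in BALB.K. There 10 of 11 erythroid markers fell at each dose, with a median of -4.21, -4.43 and -5.17, and in B10.BR 11, 11 and 10 of 11 fell, with a median of -4.67, -6.09 and -7.52. Their summed signal was 0.451% to 0.510% at 0 cGy in BALB.K and 0.220% to 0.284% over its irradiated arrays, and 0.265% to 0.301% at 0 cGy in B10.BR and 0.0366% to 0.173% over its irradiated arrays. At 900 cGy, 3 of the 11 were above background on no array. The correlation of Bcl2l1 with the mean of these markers was r = 0.97 over 12 arrays in BALB.K and 0.63 in B10.BR. It was as high with the proliferation markers (0.97 and 0.61), and Bcl2l1 ran against the plasma cell (-0.97 and -0.39), stromal (-0.93 and -0.46) and macrophage markers (-0.88 and -0.52). The part of these cells in the fall of Bcl2l1 was not tested.

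Bcl2 in B10.BR went with the lymphocyte markers (r = 0.93 with the B cell mean and 0.94 with the T cell mean, 12 arrays), and in BALB.K less so (r = 0.34 and 0.39). In B10.BR it also went with the erythroid (0.86) and proliferation markers (0.84). There it ran against the macrophage (-0.83), stromal (-0.82) and plasma cell markers (-0.77). Bax, Bbc3 and Pmaip1 ran opposite to the proliferation markers, at r = -0.93, -0.98 and -0.93 in BALB.K and -0.91, -0.87 and -0.83 in B10.BR. These genes ran about as strongly against the erythroid markers, at -0.91, -0.97 and -0.92 in BALB.K and -0.94, -0.90 and -0.85 in B10.BR. They ran against the B and T cell markers too, at -0.53 to -0.82. They also went with the stromal markers, which gained share as lymphocytes and red cells lost it: r was 0.90, 0.95 and 0.89 in BALB.K and 0.95, 0.94 and 0.90 in B10.BR. In BALB.K the summed stromal share of signal was 0.0413% to 0.0429% without irradiation and 0.141% to 0.159% after 800 cGy. For B10.BR it was 0.0459% to 0.0524% without it and 0.161% to 0.170% after 900 cGy. The plasma cell markers went with the same 3 genes at r = 0.95, 0.98 and 0.95 in BALB.K and 0.93, 0.93 and 0.91 in B10.BR, and the macrophage markers at 0.81 to 0.93. All 11 macrophage markers rose at every dose, with a summed share of 0.114% to 0.118% at 0 cGy and 0.336% to 0.347% at 800 cGy in BALB.K. The part of these shifts in the 3 rises was not tested. Signal of the exocrine pancreas, an organ next to the spleen, ran from 0.000652% to 0.755% of the signal of an array, and all 12 of its markers rose in B10.BR at 300 and 900 cGy (median 8.27 and 9.65). With its level as a covariate, an alternative added after the data were seen, the 18 rises still passed. Under it Bid at 300 cGy in B10.BR (-0.22, limma adjusted p = 0.316), Bid at 800 against 400 cGy (-0.34, limma adjusted p = 0.09), Bcl2 at 300 cGy in BALB.K (0.32, limma adjusted p = 0.0516), Bcl2l11 at 300 cGy in both strains (-0.28 and 0.30) and the Bcl2l1 strain difference at the highest doses (0.80, limma adjusted p = 0.0563) did not pass. Bmf at 300 cGy in BALB.K (-0.37, limma adjusted p = 0.0375) and Bcl2 at 800 cGy (-0.36, limma adjusted p = 0.0298) then did.

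Bcl2l11, a BH3-only gene that keeps lymphocyte numbers in check, changed little and, by its member probe, in opposite directions between the strains. It read -3.29, -3.04 and -3.32 at 0 cGy in BALB.K and -3.48, -3.50 and -3.51 at 300 cGy, and it fell there by 0.28 ± 0.11 (limma adjusted p = 0.037). In B10.BR it read -3.09, -3.27 and -3.34 at 0 cGy, -2.85, -3.05 and -2.93 at 300 cGy and -2.85, -2.90 and -2.84 at 500 cGy. The groups did not overlap, and it rose by 0.30 ± 0.11 and 0.37 ± 0.11 (limma adjusted p = 0.0307 and 0.00636). At the other doses it changed by -0.23 ± 0.11, -0.19 ± 0.11 and 0.09 ± 0.11 and did not pass. A further probe, described as Bcl2l11 but named by an Ensembl transcript, lies outside the rule for members. In BALB.K it read -3.98 ± 0.3 (SD, n = 3) at 0 cGy and -3.99 ± 0.09 at 300 cGy. At 400 and 800 cGy there it read -4.16 ± 0.062 and -4.62 ± 0.16. Its B10.BR means were -4.51, -4.23, -4.2 and -4.23 at 0, 300, 500 and 900 cGy (SD 0.11 to 0.43). Its BALB.K means at 0 and 300 cGy were thus alike, and no test of its changes is given. The member probe is dim. The call in BALB.K at 300 cGy was lost in 10 of 15 alternatives other than leaving out 1 replicate, and that in B10.BR at 300 cGy in 7 of 14. It was also lost without replicate 2 at 0 cGy (-0.19) or any 1 array at 300 cGy (-0.29 to -0.27) in BALB.K, and in B10.BR without replicate 2 or 3 at 0 cGy (0.28 and 0.24) or replicate 1 or 3 at 300 cGy (0.25 and 0.29). Bmf, whose protein waits on the cytoskeleton, ran from 1.76 to 2.61 over the BALB.K arrays and from 2.13 to 2.84 over those of B10.BR. Its changes were -0.27 to 0.31, lowest at 300 cGy and highest at the highest dose in both strains, and none passed (limma adjusted p = 0.0698 to 0.961), with an unadjusted p under 0.05 at 800 cGy in BALB.K alone.

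**Figure D3:**
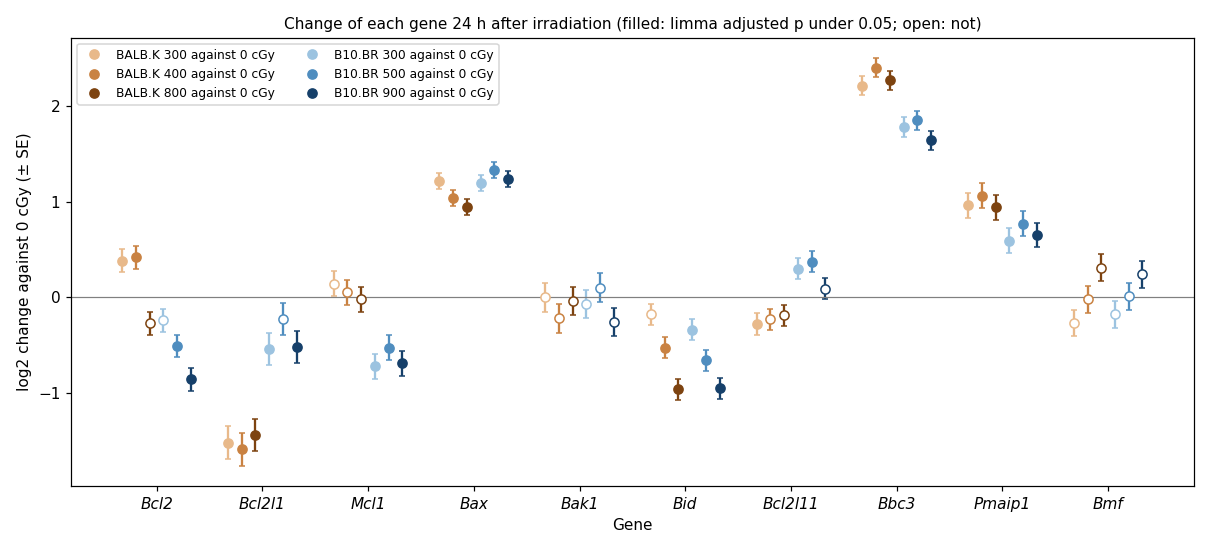
log2 change of each gene against 0 cGy of its strain (y axis, ± SE, 3 arrays against 3) for the 6 doses; filled points passed a limma adjusted p of 0.05. Bax, Bbc3 and Pmaip1 are above 0 at all 6, Bcl2l1 is lowest in BALB.K, and Bcl2 is above 0 only in BALB.K at 300 and 400 cGy.

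Between successive doses few members moved. Between 400 and 300 cGy in BALB.K no member passed (4.68% of all features did), and at 800 against 400 cGy Bcl2 fell by 0.69 ± 0.12 and Bid by 0.42 ± 0.11 (limma adjusted p = 0.000918 and 0.0126, where 18.6% of all features passed). In B10.BR no member passed at 500 against 300 cGy (1.58% of all features) or at 900 against 500 cGy (4.57%). Before adjustment limma gave a p under 0.05 for 2 members at 400 against 300 cGy (Bax and Bid), 2 at 500 against 300 cGy (Bcl2 and Bid) and 4 at 900 against 500 cGy (Bcl2, Bak1, Bid and Bcl2l11). For Bax, Bbc3 and Pmaip1 no further rise passed above the lowest dose: over the 4 steps their 95% intervals ran from -0.36 to 0.32, from -0.42 to 0.41 and from -0.39 to 0.45. Cdkn1a rose further by 1.20 ± 0.099 from 400 to 800 cGy and by 0.63 ± 0.099 and 0.50 ± 0.099 over the B10.BR steps (limma adjusted p = 2.9e-07, 0.0032 and 0.0064). From 300 to 400 cGy in BALB.K its change of 0.24 ± 0.099 did not pass (limma adjusted p = 0.175). Whether these slopes differ between Cdkn1a and a member was not tested. For Bid the 95% intervals of all 4 steps lay below 0 (-0.65 to -0.06 in all), though only 1 passed after adjustment, and the call at 800 against 400 cGy did not hold without replicate 3 at 400 cGy (-0.37) or replicate 3 at 800 cGy (-0.39).

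The strains differed before irradiation. Against BALB.K at 0 cGy, unirradiated B10.BR had more Bcl2 (0.86 ± 0.12), Mcl1 (0.68 ± 0.13), Bak1 (0.44 ± 0.15), Bbc3 (0.46 ± 0.10) and Pmaip1 (0.56 ± 0.13), and less Bcl2l1 (-1.11 ± 0.17). These 6 of 10 passed (limma adjusted p = 1.58e-05, 0.00027, 0.0182, 0.000985, 0.00151 and 2.98e-05) and are 5 higher and 1 lower, where 22.7% of all features were higher and 30.6% lower. No array of one strain lay within the range of the other in these 6 genes. Both probes of Mcl1 were higher (0.37 ± 0.12 by the second) and both of Bcl2l1 lower (-0.80 ± 0.31). Bax, at 3.95 ± 0.10 in BALB.K and 4.05 ± 0.087 in B10.BR (SD, n = 3), overlapped between the strains and did not pass (95% interval of the difference -0.07 to 0.28). These values depended on the scaling: on spike-in probes the median of all features moved from -0.10 to -0.78, and the share of higher among called features went from 42.6% to 5.92% (69.2% with median scaling). Bcl2, Mcl1, Bak1, Bbc3 and Pmaip1 then gave 0.18, 0.00, -0.24, -0.22 and -0.12, none of which passed. Relative to the median of all features, the values above are 0.96, 0.78, 0.54, 0.56 and 0.66, and -1.01 for Bcl2l1. The B10.BR 0 cGy arrays lay on the first slide and those of BALB.K on the second, and with the slide as a block Bak1, Bbc3 and Pmaip1 did not pass (0.07, 0.39 and 0.60). Bak1 did not pass without replicate 3 at 0 cGy in B10.BR either (0.40).

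The change from 0 cGy differed between the strains for all 3 survival genes. At 300 cGy, the dose given to both, the B10.BR change minus the BALB.K change was -0.62 ± 0.17 for Bcl2, 0.98 ± 0.24 for Bcl2l1, -0.87 ± 0.18 for Mcl1 and 0.58 ± 0.15 for Bcl2l11 (limma adjusted p = 0.0282, 0.0137, 0.00505 and 0.0191). These 2 higher and 2 lower of 10 stand beside 6.04% and 4.77% of all features. For the dimmer probes the difference was 1.66 ± 0.43 for Bcl2l1, which passed, and -0.41 ± 0.18 for Mcl1, which did not (limma adjusted p = 0.0225 and 0.157). The Bcl2l11 difference rests on its 1 member probe. Bax, Pmaip1 and Bbc3 differed by -0.03, -0.38 and -0.43 and did not pass (95% intervals -0.28 to 0.21, -0.76 to 0.01 and -0.73 to -0.13). With the slide as a block only Bcl2 passed, and with only the arrays compared in the fit none did. The Bcl2 call did not hold without replicate 3 at 0 cGy (-0.53), 2 or 3 at 300 cGy (-0.61 each) in B10.BR, or replicate 2 at 0 cGy (-0.55) or 1 at 300 cGy (-0.49) in BALB.K, and that of Bcl2l11 not without replicate 3 at 0 cGy in B10.BR (0.52) or 2 at 0 cGy in BALB.K (0.49).

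The highest doses, 900 cGy in B10.BR and 800 cGy in BALB.K, are not equal, so that this comparison joins strain and dose. The B10.BR change minus the BALB.K change was -0.58 ± 0.17 for Bcl2, 0.92 ± 0.24 for Bcl2l1, -0.67 ± 0.18 for Mcl1 and -0.63 ± 0.14 for Bbc3 (limma adjusted p = 0.0347, 0.0167, 0.0207 and 0.00714), 1 higher and 3 lower of 10 members beside 6.8% and 5.92% of all features. The dimmer probes differed by 0.70 ± 0.43 for Bcl2l1 and -0.54 ± 0.18 for Mcl1 and did not pass (limma adjusted p = 0.337 and 0.0551). Bax differed by 0.30 and did not pass (95% interval 0.05 to 0.55, limma adjusted p = 0.109). None of the 4 passed with the slide as a block, and none with spike-in scaling. The Bcl2 difference did not pass without any 1 of 9 of the 12 arrays, that is all but replicate 1 at 0 cGy of each strain and replicate 3 at 900 cGy (-0.62 to -0.48), and Mcl1 did not pass without replicate 3 at 0 cGy in B10.BR (-0.56) or replicate 2 at 0 cGy in BALB.K (-0.59).

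The balance within an array was taken as the log2 signal of Bax minus that of a survival gene, which no scaling of the array can move. It is a relative value, with 9 irradiated arrays against 3 in each strain. Bax minus Bcl2l1 went in BALB.K from -1.86 ± 0.22 (SD, n = 3) to 0.73 ± 0.19 (SD, n = 9), a shift of 2.58 or 5.99-fold, and in B10.BR from -0.64 ± 0.19 (SD, n = 3) to 1.04 ± 0.26 (SD, n = 9), a shift of 1.69 or 3.22-fold. Bax minus Bcl2 shifted by 0.89 in BALB.K and by 1.79 in B10.BR. Bax minus Mcl1 shifted by 1.01 and 1.90. In all 6 cases no irradiated array overlapped an unirradiated one, and each had an exact permutation p of 0.00909, two-sided, which is the smallest that 9 against 3 arrays can give (0.00909 after adjustment over 6). All 6 hold Bax, whose irradiated arrays lay above the unirradiated ones by themselves, so that its rise alone could give this p. They are thus not separate tests and do not show that a survival gene changed. In BALB.K Mcl1 passed at no dose, and Bax alone rose by 0.94 to 1.22. The shift against Bcl2l1 was thus the largest in BALB.K and the smallest in B10.BR, though these differences between strains were not tested.

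**Figure D4:**
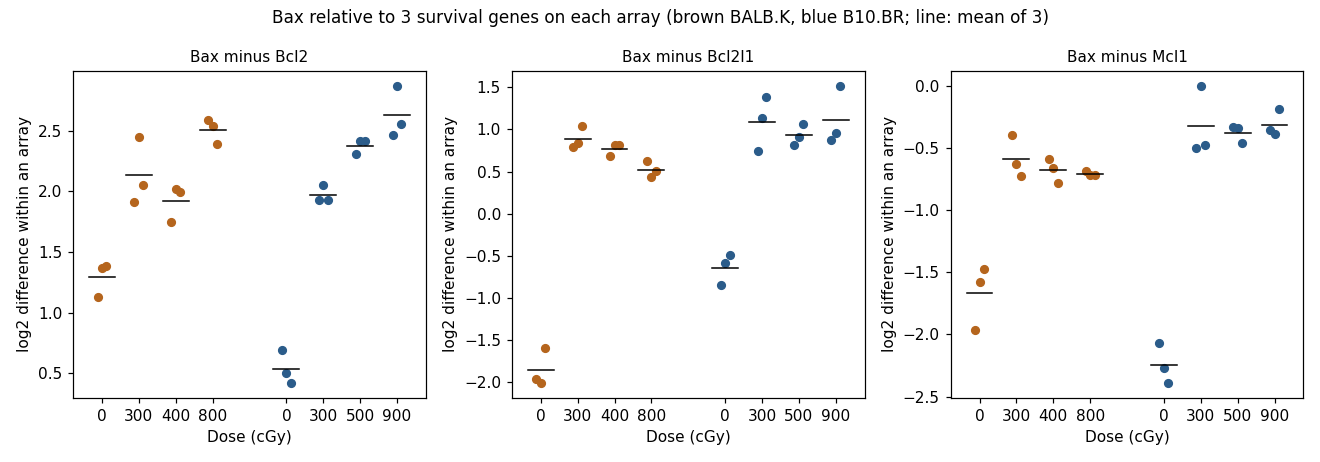
log2 signal of Bax minus that of Bcl2, Bcl2l1 or Mcl1 on each array (y axis) by dose in cGy (x axis), with BALB.K in brown, B10.BR in blue and a line for the mean of 3 arrays. Every irradiated array lies above every unirradiated array of its strain in all 3 panels.

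Among the members themselves, Bax, Bbc3 and Pmaip1 ran together over the 24 arrays, at r = 0.93 for Bax with Bbc3, 0.90 for Bax with Pmaip1 and 0.88 for Bbc3 with Pmaip1. Bcl2l1 ran against all 3, at r = -0.75, -0.80 and -0.82, with stronger values in BALB.K (-0.94, -0.97 and -0.93 over 12 arrays) than in B10.BR (-0.56, -0.51 and -0.48). These arrays share dose and strain, so that the values describe the pattern over 8 groups. Over the same arrays, the genes most like a member out of 16880 compared were Map3k5 for Bcl2 (r = 0.90), Fam214b and Pir for Bcl2l1 (0.96 each), Galt and Cog3 for Mcl1 (0.85 each), Aoc1 for Bax (0.98) and Dhrs7b for Bak1 (0.94). For the BH3-only genes they were Tlr1 and Gpr183 for Bid (0.98 each), and Agpat5, Acsf3 and Serpinc1 for Bcl2l11 (0.83 each). Rgs5, Ifit3b and Ifi207 were most like Bbc3 (0.98 each), and Rab9, Mdfic and Ric1 most like Pmaip1 (0.95 each). For Bmf they were Ppp1r37 and Retreg2 (0.86 each). At most 3 genes were ranked per member, so that further genes may share these values.

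The rest of the family was read from a list of 16 further members, of which 13 were tested. At 300 cGy 7 rose and 1 fell in BALB.K (20.8% and 25.9% of all features) and 8 rose and 3 fell in B10.BR (18.8% and 22.8%). At the highest doses 5 rose and 2 fell in BALB.K and 5 rose and 4 fell in B10.BR. Over all features 29.2% rose and 29.1% fell at 800 cGy, and 25.8% and 28.4% at 900 cGy, so that these counts at the highest doses are near the background. The median change of these 13 lay between 0.31 and 0.58 over the 6 doses. Bcl2l2 (Bcl-w), a survival gene, rose by 0.89 ± 0.068 at 800 cGy in BALB.K and by 0.78 ± 0.068 at 900 cGy in B10.BR (limma adjusted p = 2.1e-09 and 1.26e-08). Bik, a BH3-only gene, rose by 1.17 ± 0.13 and 1.23 ± 0.13, and the effector relative Bok by 1.03 ± 0.15 in each strain. Bnip3l (Nix), which clears mitochondria from maturing red cells, fell by 1.85 ± 0.14 in BALB.K and by 1.02 ± 0.14 in B10.BR. Bcl2l15 fell by 0.66 ± 0.14 in BALB.K and by 1.68 ± 0.14 in B10.BR, the largest fall of the list there, and Bcl2l12 fell by 0.77 ± 0.12 at 900 cGy. The Bcl2a1 copies of the list are near-identical, so that their place in these counts is uncertain.

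Beside the members, the same 8 of 12 other p53 targets of the death program rose at every dose in both strains, where 18.8% to 29.2% of all features rose. The median change of the 12 was 0.77 to 1.26, beside -0.12 to 0.08 over all features. Phlda3, which restrains Akt, rose by 3.21 ± 0.095 at 800 cGy in BALB.K and by 3.31 ± 0.095 at 900 cGy in B10.BR, and Perp, a membrane protein of p53-driven death, by 2.81 ± 0.29 and 2.36 ± 0.29. Pidd1 fell by 1.31 ± 0.12 and 0.36 ± 0.12. Downstream, of 17 genes of the apoptosome and caspases, 5 rose and 9 fell at 800 cGy in BALB.K and 3 rose and 8 fell at 900 cGy in B10.BR, where the shares over all features were 29.2% and 29.1%, and 25.8% and 28.4%. Apaf1, the scaffold of the apoptosome, rose by 0.36 ± 0.10 and 0.29 ± 0.10. Birc5 (survivin), which dividing cells need, fell by 4.13 ± 0.15 in BALB.K and fell by 2.93 ± 0.15 in B10.BR. Of 17 further regulators, 4 rose and 6 fell at 800 cGy and 3 rose and 7 fell at 900 cGy, with Bag3, a co-chaperone that binds Bcl2, up by 1.12 ± 0.14 and 0.72 ± 0.14 and the DNA damage kinase Atm down by 1.14 ± 0.15 and 0.95 ± 0.15.

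Scaling on the 10 spike-in probes instead of the array's own signal moved the median of all features by -0.06 to 0.39 in the 6 comparisons with 0 cGy. The share of higher among called features then went from 50.1% to 77.6% at 800 cGy in BALB.K and from 47.6% to 78.6% at 900 cGy in B10.BR. Under it Bax, Bbc3 and Pmaip1 still rose at all 6 doses and Bcl2l1 still fell in BALB.K (-1.58, -1.5 and -1.06), whereas the falls of Bcl2l1, Mcl1, Bcl2 and Bid in B10.BR, the falls of Bid and the rises of Bcl2 in BALB.K and the fall of Bcl2l11 there no longer passed. Bmf then rose at the highest doses (0.69 and 0.63, limma adjusted p = 0.0124 and 0.0253). The falls given above are relative to the array's 75th percentile.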

How the data were processed

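Spleen RNA was measured on 24 arrays, and the number of arrays limits the precision. Per the file headers, the authors deposited intensity values from Agilent Feature Extraction 10.5.1.1, background-subtracted and detrended within each array, with probe positions on mm9. The authors' deposited matrix of log2 values, whose normalization no source used here states, was centred per probe in BALB.K and has an unknown baseline in B10.BR. It was used within a strain, as an alternative.

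Here log2 of the processed signal was scaled by subtracting the array's 75th percentile. Outlier spots were left out, probes well above background on all 3 arrays of at least 1 group were kept (42307 of 55681), and the probe of highest mean stood for a gene. limma 3.58.1 (R 4.3.3, data.table version 1.17.8) fitted a mean per group over all arrays, two-sided, for 13 comparisons with Benjamini-Hochberg adjustment at 0.05. The steps were checked on simulated data. Names and promoters are from RefSeq (GRCm38.p6).

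The members and the gene lists were chosen with earlier results of these data known. All members are described, and from each list the 3 called genes of largest rise and fall at the highest doses could be named. Likeness is Pearson's r over 24 arrays among 16880 genes. The alternatives were other scalings (quantile, median, 10 spike-in probes), normexp (offset 50), filters, probe means, the arrays compared only, an intensity trend, the slide and the replicate number as blocks, arrays with Y-linked signal and the deposited matrix. Replicate numbers gave correlated residuals in every pair in 1 of 10 comparisons and were not used as pairs.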

Additional observations from a re-analysis of the deposited data

Results flagged for a closer look

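The survival genes differed between the strains in their change from 0 cGy, by a test of the difference itself in limma (B10.BR change minus BALB.K change, log2). Among the BH3-only genes, Bcl2l11 passed at 300 cGy alone and Bbc3 at the highest doses alone. At 300 cGy the differences were -0.62 for Bcl2, 0.98 for Bcl2l1, -0.87 for Mcl1 and 0.58 for Bcl2l11 (limma adjusted p = 0.0282, 0.0137, 0.00505 and 0.0191). Between 900 cGy in B10.BR and 800 cGy in BALB.K they were -0.58 for Bcl2, 0.92 for Bcl2l1, -0.67 for Mcl1 and -0.63 for Bbc3 (limma adjusted p = 0.0347, 0.0167, 0.0207 and 0.00714). The strain differences at rest run the other way in sign for Bcl2 (0.86), Bcl2l1 (-1.11), Mcl1 (0.68) and Bbc3 (0.46), and both share the 0 cGy arrays. With spike-in scaling the values at rest were 0.18, -1.79, 0 and -0.22, so that Bbc3 then had the same sign as its difference, and of the 8 differences 1 passed. With the slide as a block only the Bcl2 difference at 300 cGy passed. The Bcl2 difference at the highest doses did not pass in 14 of 25 alternatives.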

How the results depend on the processing

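The 18 rises of Bax, Bbc3 and Pmaip1, the 3 falls of Bcl2l1 in BALB.K and the 6 shifts of Bax against a survival gene kept their direction and passed in every alternative run. The 6 shifts all hold Bax, so that they are not separate from its rises. Of the 54 member results that passed, 22 passed in every alternative other than leaving out 1 replicate, 32 did not pass in at least 1 and 4 changed sign in at least 1. Leaving out a replicate changed the sign of none of the 54, and 13 no longer passed in at least 1 case. Causes were not tested.

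Counts of members that passed moved as follows. With spike-in scaling they were 4 in B10.BR at 300, 500 and 900 cGy, 0 at 800 against 400 cGy, 1 for the strain difference at 300 cGy and 0 at the highest doses. Between the resting strains that scaling gave 3, with 0 higher and 3 lower, where the main scaling gave 5 higher and 1 lower. Of those 6 only Bcl2l1 still passed (-1.79). With the slide as a block they were 1 at 400 against 300 cGy, 1 at 500 against 300 cGy, 3 between the resting strains, and 1 and 0 for the strain differences at 300 cGy and at the highest doses. Median scaling gave 2 at 400 against 300 cGy and 10 between the resting strains. Normexp gave 8 at 800 cGy in BALB.K and 1 at 400 against 300 cGy. Much of the array was called in these settings too. Between the resting strains 16750 features passed under median scaling, beside 15742 in the main setting. Under normexp 17481 features passed for 800 cGy in BALB.K, where the main setting had 17230. Whether the members stood out from these totals was not tested. Only the arrays compared gave 4 members at 300 cGy in B10.BR and 0 for the strain difference at 300 cGy. Quantile normalization gave 2 at the highest-dose strain difference, and the exocrine covariate, added after the data were seen, 1 at 800 against 400 cGy. The replicate block gave 1 at 400 against 300 cGy and moved no other count beyond 1.5 times. Without 1 replicate the counts ran from 0 to 1 at 400 against 300 cGy, from 1 to 3 at 800 against 400 cGy, from 0 to 1 at 900 against 500 cGy, from 2 to 5 for the strain difference at 300 cGy and from 2 to 4 at the highest doses.

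The number of all features that passed moved too: with spike-in scaling from 12279 to 7663 in B10.BR at 300 cGy and from 3754 to 628 at the highest-dose strain difference, with the slide as a block from 15742 to 5719 between the resting strains and from 3754 to 404 at the highest-dose strain difference, with median scaling from 1383 to 5164 at 400 against 300 cGy, and with only the arrays compared from 3192 to 865 for the strain difference at 300 cGy.

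Signs changed as follows. Between the resting strains, spike-in scaling gave 0 for Mcl1, -0.24 for Bak1, -0.22 for Bbc3 and -0.12 for Pmaip1. The other changes of sign were in values that did not pass. With spike-in scaling they were 0.07 for Bmf at 400 cGy in BALB.K, 0.11, 0.36, 0.34 and 0.19 for Bcl2, Mcl1, Bak1 and Bcl2l11 at 800 cGy, 0.09, 0.26 and 0.15 for Bcl2, Bak1 and Bmf at 300 cGy in B10.BR, 0.09 for Bcl2l1 at 500 cGy and 0.13 for Bak1 at 900 cGy. With the slide as a block they were -0.01 for Mcl1 and 0.1 for Bak1 at 300 cGy in BALB.K, -0.18 for Mcl1 and 0.27 for Bmf at 400 cGy, 0.12 for Bcl2 and 0.12 for Bak1 at 800 cGy, and 0.11 for Bak1 at 900 cGy. Bak1 in BALB.K gave 0.01 (deposited log2 matrix), 0.17 (median scaling), 0.01 (normexp) and 0.07 (quantile) at 300 cGy, and 0 (normexp) and 0.02 (quantile) at 800 cGy. Bak1 at 300 cGy in B10.BR gave 0.02 with quantile normalization. Mcl1 at 800 cGy gave 0.03 with normexp and 0.13 with quantile normalization. Bmf at 400 cGy gave 0.01 (exocrine covariate), 0.01 (normexp) and 0.06 (quantile), and with the exocrine covariate -0.09 at 500 cGy and -0.08 at 900 cGy. Bcl2l11 at 900 cGy gave 0 with median scaling and -0.01 with normexp. Without 1 replicate, values that changed sign in at least 1 case ran in BALB.K from -0.06 to 0.07 for Bak1 at 300 cGy, from -0.03 to 0.16 for Mcl1 and from -0.18 to 0.06 for Bmf at 400 cGy, and from -0.1 to 0.09 for Mcl1 and from -0.1 to 0.04 for Bak1 at 800 cGy. In B10.BR they ran from -0.21 to 0.06 for Bak1 at 300 cGy, from 0 to 0.22 for Bak1 and from -0.1 to 0.11 for Bmf at 500 cGy, and from -0.03 to 0.16 for Bcl2l11 at 900 cGy.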
